A study of Mus musculus with 2 samples.

Results

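The 6 genes described here, of 32285 measured, are the adrenergic receptor genes Adra1a, Adra1b, Adra1d, Adra2a, Adra2c and Adrb1, taken by their symbols from the feature tables of 2 single-nucleus RNA libraries from the mouse ventral tegmental area (VTA). The VTA is the midbrain region that holds dopaminergic neurons projecting to the forebrain. Both came from adult mice. One library, WT, was from wild-type mice. The other, CCI, was from mice with chronic constriction injury, a neuropathic pain model in which the left sciatic nerve is ligated while the right nerve is exposed and left untied. The study asks about astrocytes and somatostatin and dopaminergic neurons of this region in chronic pain. The labels call the assay single-nucleus and describe enzymatic dissociation of minced tissue. They give no strain, sex, exact age, time after injury, side of the brain or number of animals, so a library may hold 1 animal or several pooled.

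Noradrenaline reaches the midbrain from axons of the locus coeruleus and other hindbrain groups, and acts on 3 receptor families. Alpha1 receptors (Adra1a, Adra1b, Adra1d) couple to Gq and release calcium from internal stores; alpha2 receptors (Adra2a, Adra2c) couple to Gi/o and lower cAMP; the beta1 receptor (Adrb1) couples to Gs and raises it. In astrocytes, noradrenaline acting through alpha1 receptors is known for evoking calcium rises, and Adra2a is also the autoreceptor of noradrenergic neurons. Other adrenergic receptor genes were not analysed here.

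The WT library held 14114 barcodes with 18581333 unique molecular identifiers (UMIs, one per captured RNA molecule), and the CCI library 13736 barcodes with 68376220 UMIs. After removal of low-quality barcodes and predicted doublets, 12189 WT nuclei with a median of 975 UMIs and 12825 CCI nuclei with a median of 3461 UMIs were kept. The libraries shared 37 barcode sequences among kept nuclei. With 1 library per group, library and condition cannot be told apart, no test between them was possible, and every interval covers counting error only. Nuclei were assigned to classes by clusters and fixed marker genes, the 6 receptor genes being left out of the clustering. Class names stand for astrocyte-like, microglia-like and so on, the suffix being dropped below. In all, 13 classes held at least 50 nuclei in both libraries. One of them, a subcluster led by Pmch and Hcrt but also by the serotonergic genes Tph2 and Slc6a4, has leading genes of several types; it is called the mixed Pmch- and Hcrt-led neurons and given no type. The libraries differed in make-up. Synpo2-type neurons, which carry markers of thalamic neurons (Synpo2, Lef1, Prkcd), numbered 83 in WT and 501 in CCI, Sst GABAergic neurons 32 and 444, the mixed Pmch- and Hcrt-led neurons 54 and 542, and Sox6-type dopaminergic neurons 509 and 247. No noradrenergic neuron class was found: Dbh, the enzyme that makes noradrenaline, had 0 WT UMIs and 1 CCI UMI, and its transporter Slc6a2 had 1 in each library.

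Levels are given as CPM, the UMIs of a gene relative to all UMIs of the class, and are compared within a gene, never between genes. By the GENCODE vM21 annotation of build GRCm38 (mm10), Adra1a lies on the plus strand at chr14:66635251-66771168 and Adra1b on the minus strand at chr11:43774606-43901210. Introns take up 93.6% of the first span and 97.3% of the second. Adra2a (chr19:54044151-54048982, plus strand) and Adra2c (chr5:35278319-35281763, plus strand) have 1 exon and no intron. Adrb1 lies on the plus strand at chr19:56722199-56733113. Adra1d, on the minus strand at chr2:131545850-131562283, shares exonic bases with Gm14285 on the opposite strand, and whether counting used strand is not given in the sources used here. Whether intronic reads were counted is not given either, which bears on nuclear RNA of genes with long introns.

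Adra1b and Adrb1 were both highest, among neuron groups of the CCI library, in the same Synpo2-type neurons, so the 250 bases before their start sites are shown, from RefSeq on build GRCm38.p6. Of the 6 genes, 4 have such a window. Capitals mark GGGCGG (the GC box) and TGACG (the core of the cAMP response element), searched on both strands together with TATAAA and CTTTGA (the core bound by TCF/LEF factors).
Adra1b, distal start, chr11:43901238-43901487, minus strand: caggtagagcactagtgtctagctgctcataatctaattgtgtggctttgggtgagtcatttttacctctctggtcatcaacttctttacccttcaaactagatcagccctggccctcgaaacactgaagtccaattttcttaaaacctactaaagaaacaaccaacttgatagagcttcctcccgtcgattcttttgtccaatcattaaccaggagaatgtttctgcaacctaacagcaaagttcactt
Adra1b, proximal start, chr11:43836490-43836739, minus strand: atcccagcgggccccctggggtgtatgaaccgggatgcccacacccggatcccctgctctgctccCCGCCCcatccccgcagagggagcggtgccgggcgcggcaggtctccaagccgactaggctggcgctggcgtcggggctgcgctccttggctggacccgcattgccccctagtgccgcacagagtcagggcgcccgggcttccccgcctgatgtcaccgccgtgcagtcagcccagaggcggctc
Adrb1, chr19:56721867-56722116, plus strand: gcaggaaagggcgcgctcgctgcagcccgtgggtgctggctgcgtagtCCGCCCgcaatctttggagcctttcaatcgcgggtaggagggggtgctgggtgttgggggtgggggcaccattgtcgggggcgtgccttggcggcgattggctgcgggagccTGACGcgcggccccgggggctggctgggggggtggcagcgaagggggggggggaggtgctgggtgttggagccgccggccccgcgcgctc
The distal Adra1b window held none of the 4 motifs, the proximal one a GC box, and the Adrb1 window a GC box and TGACG. Of 32851 mouse promoter windows of the same length, 32.7% held GGGCGG, 17.8% TGACG, 12.4% TATAAA and 13.8% CTTTGA. G and C made up 41.6% of the distal Adra1b window, 72.8% of the proximal one and 74.0% of the Adrb1 window, against a median of 52.4%.

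Adra1a, an alpha1 receptor, was highest in oligodendrocyte precursors in both libraries among the 13 classes. In these glial cells, marked by Pdgfra and Cspg4, the WT level was 133 CPM (95% interval 102 to 171; 63 UMIs in 546 nuclei) and the CCI level 121 CPM (103 to 142; 153 UMIs in 385 nuclei). These were 4.18 and 3.57 times the level of all other nuclei of the same library. Adra1a was the only member at least 2-fold higher in this class, where 8.12% of genes were in WT and 8.97% in CCI. Astrocytes had 90.1 CPM in WT (72.7 to 111; 92 UMIs), with 65.5 CPM (57.6 to 74.2; 248 UMIs) in CCI. The mixed Pmch- and Hcrt-led neurons lay beside them in WT, at 91.9 CPM on only 9 UMIs (42.0 to 175), and the 3 WT intervals overlapped. In CCI that class had 52.3 CPM, and the precursor interval lay above those of all other classes. Committed precursors, the next stage of the lineage and not among the 13 classes, had 3 WT and 2 CCI Adra1a UMIs, with intervals of 2.47 to 35.0 CPM and 2.14 to 63.8 CPM. Mature oligodendrocytes were low, with 16 UMIs or 6.90 CPM in WT against 47 UMIs or 8.51 CPM in CCI.

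Shares of nuclei put the precursors and astrocytes above the background. After each nucleus was thinned to 1000 UMIs, 11.7% of WT and 13.0% of CCI oligodendrocyte precursors had an Adra1a UMI, with 418 and 0 shallower nuclei left out. Astrocytes had 10.2% (21 of 205 nuclei, 1067 shallower ones left out) in WT and 5.21% (77 of 1477) in CCI. Mature oligodendrocytes, taken as the background, had 0.295% and 0.918%. Thinning left out most WT oligodendrocytes, whose median was under 1000 UMIs. The WT background, here and for the other genes, therefore rests on the deeper nuclei only, and small differences from it are not resolved. Without thinning, the precursor shares were 11.0% in WT, at a median of 808 UMIs, and 28.8% in CCI, at 3028 UMIs. The unthinned oligodendrocyte shares were 0.515% and 1.62%, at median depths of 682 and 1800.5 UMIs.

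**Figure D1:**
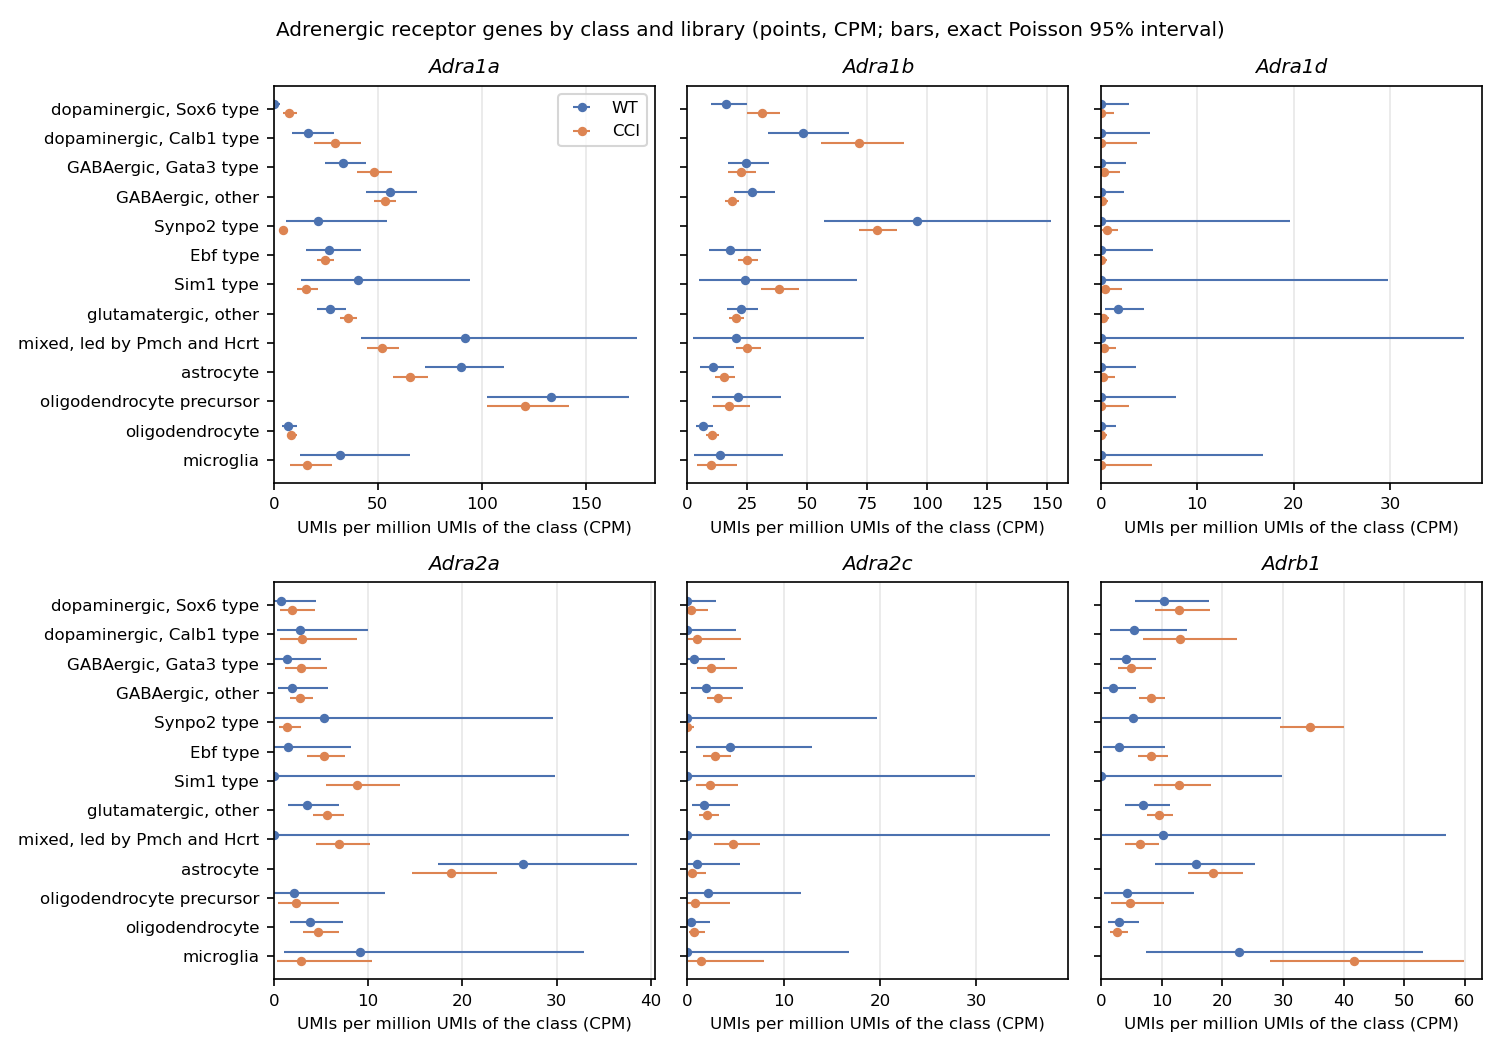
Level of each gene (CPM) in the 13 classes, with WT in blue, CCI in orange and bars for exact Poisson 95% intervals. Adra1a stands highest in oligodendrocyte precursors (133 and 121 CPM), Adra1b in Synpo2-type neurons (95.9 and 79.1 CPM) and Adra2a in astrocytes (26.5 and 18.8 CPM).

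Among neurons, the GABAergic group of no named subtype carried more Adra1a than either dopaminergic type, with no overlap of intervals in either library. It held 85 WT and 408 CCI UMIs, or 55.7 and 53.4 CPM. Gata3-type GABAergic neurons had 33.5 and 48.0 CPM, and their intervals overlapped those of the Calb1-type dopaminergic neurons (16.6 and 29.3 CPM). Within the Gata3 type, the subcluster led by Pax5 and Hydin was the highest in both libraries, at 61.4 CPM in WT (43.7 to 84.0; 39 UMIs) and 66.5 CPM in CCI (51.6 to 84.5; 67 UMIs). In CCI its interval overlapped that of another Gata3 subcluster, at 51.0 CPM (37.2 to 68.2), so the order was resolved in WT only. Ebf-type neurons had 26.5 and 24.7 CPM, and the other glutamatergic neurons 27.1 and 35.8 CPM. The WT intervals of the Gata3, Ebf and other glutamatergic groups overlapped, so their order there is not resolved.

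The Sst GABAergic class joins GABAergic subclusters with at least 150 CPM of Sst, and these subclusters differed by alpha1 gene. Sst encodes somatostatin, an inhibitory peptide. In the CCI library, the subcluster led by Egfr, Sst and Pax7 (91 nuclei) had 101 Adra1a UMIs, or 201 CPM (164 to 245), and 2 Adra1b UMIs. The subcluster led by Six3, Pvalb and Npy (133 nuclei) had the reverse, with 3 Adra1a UMIs and 56 Adra1b UMIs, or 59.6 CPM (45.0 to 77.4). The remaining Sst subcluster, with Pax6 and Piezo2 among its leading genes, lay between them in Adra1a, at 68.3 CPM (110 UMIs in 220 nuclei). WT held 2 nuclei of the first and 0 of the second, so this difference was seen in 1 library. Over both libraries, Sst itself stood at 1014.6 CPM in the first subcluster, 272.5 CPM in the second and 198.9 CPM in the remaining one. A small group of Ebf-type neurons led by Gulp1 and Postn had 82.8 CPM of Adra1a in CCI (55.9 to 118; 30 UMIs in 47 nuclei), above the class as a whole, and 63.5 CPM in WT (27.4 to 125; 8 UMIs in 64 nuclei), where the intervals overlapped. The subclusters described here and below were singled out after their values were seen.

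**Figure D2:**
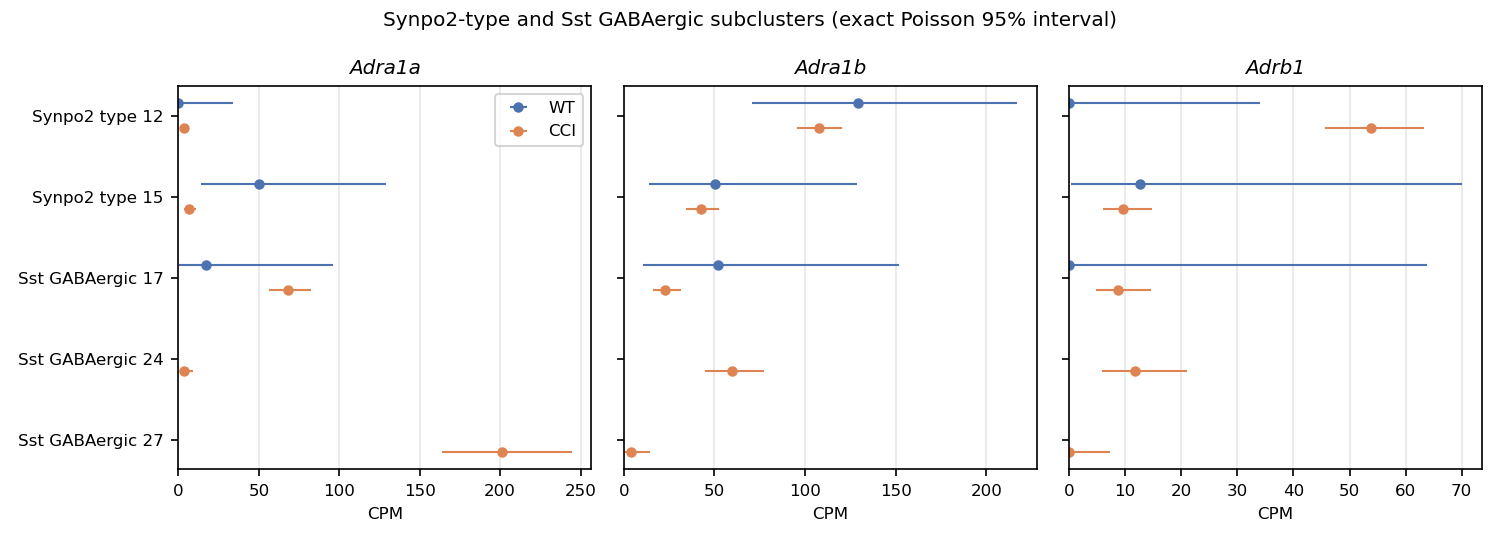
Adra1a, Adra1b and Adrb1 levels (CPM) in the Synpo2-type and Sst GABAergic subclusters, numbered as clustered, with exact Poisson 95% intervals, where a library held at least 20 nuclei. In CCI, Adra1a is highest in Sst subcluster 27 (201 CPM), and Adra1b (107 CPM) and Adrb1 (53.9 CPM) in Synpo2-type subcluster 12.

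Both alpha1 genes were higher in the Calb1 type of dopaminergic neuron than in the Sox6 type, in each library. The Sox6 type is characteristic of the substantia nigra and lateral VTA, and the Calb1 type of more medial and dorsal groups; here they were separated by Sox6 against Calb1. Adra1b stood at 48.4 CPM in the Calb1 type (35 UMIs) and 16.1 CPM in the Sox6 type (20 UMIs) of WT, a 3.01-fold difference (1.69 to 5.50). In CCI the levels were 71.6 and 31.1 CPM, a 2.30-fold difference (1.65 to 3.21). Adra1a had 12 UMIs in the Calb1 type and 0 in 509 Sox6-type nuclei of WT, so it was at least 4.78-fold higher, the lower limit of the exact 95% interval, and 6.88-fold against a floor of 3 counts over the class. With nuclei thinned to 1000 UMIs the value against the floor fell to 0.67 on the log2 scale, with a lower limit of -0.60. In CCI it had 29 and 19 UMIs, or 29.3 and 7.20 CPM, a 4.06-fold difference (2.20 to 7.67). Genes at least 2-fold higher in the Calb1 type made up 3.97% of those measured in WT and 5.88% in CCI. Adrb1 did not show this pattern: its ratio of Calb1 to Sox6 type was 0.529 (0.126 to 1.71) in WT and 1.02 (0.493 to 1.98) in CCI. Slc6a3, the dopamine transporter, was lower in the Calb1 type in both libraries, at 549 against 709 CPM in WT and 406 against 739 CPM in CCI.

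Of the 13 classes, Synpo2-type neurons had the highest Adra1b level. The class had 95.9 CPM in WT (56.8 to 151; 18 UMIs) and 79.1 CPM in CCI (71.5 to 87.3; 392 UMIs), 5.18 and 3.53 times the level of all other nuclei. The Calb1-type dopaminergic intervals (33.7 to 67.3 in WT, 56.0 to 90.4 in CCI) overlapped these, so the order of these classes is not resolved. At least 2-fold higher in this class were 10.2% of genes in WT and 5.68% in CCI. With nuclei classed by a marker gate on each nucleus in place of clusters, the contrast fell below 2-fold, to log2 0.55 in WT and 0.64 in CCI. The subcluster led by Abhd12b, Prkcd and Lef1 stood above the one led by Adgrg6 and Prkch: 129 against 50.3 CPM in WT, with overlapping intervals, and 107 (95.6 to 120.3) against 42.8 CPM (34.6 to 52.5) in CCI, where they did not overlap. After thinning, 12.5% of WT and 8.58% of CCI Synpo2-type nuclei had an Adra1b UMI. The shares were 5.48% and 7.26% in Calb1-type and 1.08% and 2.02% in Sox6-type dopaminergic nuclei, and the mature oligodendrocyte background was 0.295% in WT and 0.808% in CCI. Unthinned, 19.3% and 41.9% of Synpo2-type nuclei had a UMI.

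Adra1d, the remaining alpha1 gene, was near the limit of detection, with 4 UMIs in WT, all in the other glutamatergic neurons, and 18 in CCI. Of the 18 CCI UMIs, 6 fell in the Sst subcluster led by Six3, Pvalb and Npy, which held 6.39 CPM (2.34 to 13.9). No dopaminergic, Ebf-type, oligodendrocyte precursor, oligodendrocyte or microglial nucleus of either library had an Adra1d UMI.

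Adra2a, an alpha2 receptor, was highest in astrocytes among the 13 classes in both libraries. Fibroblasts, too few to be compared, had 42.4 CPM in WT on 1 UMI and 24.0 CPM in CCI on 3 UMIs. WT astrocytes had 26.5 CPM (17.4 to 38.5; 27 UMIs), 9.00 times the level of all other nuclei, and CCI astrocytes 18.8 CPM (14.6 to 23.7; 71 UMIs), 3.93 times. Astrocytes held 38.0% of all Adra2a UMIs of WT and 20.5% of those of CCI. Of the 6 genes, Adra1a, Adra2a and Adrb1 were at least 2-fold higher in WT astrocytes and Adra2a alone in CCI astrocytes, against 10.3% and 11.8% of all genes. After thinning, 2.93% of WT and 1.96% of CCI astrocytes had an Adra2a UMI, against 0.590% and 0.477% of mature oligodendrocytes; the WT intervals overlapped. In neurons of the CCI library, an unnamed subcluster with Otx2 and Reln among its leading genes had 19.7 CPM of Adra2a (12.9 to 28.8; 26 UMIs), near the astrocyte level. The Sim1-type subcluster led by Calcr had 12.9 CPM (7.86 to 19.9; 20 UMIs). Sim1-type neurons of WT had 0 UMIs in 64 nuclei, which at 3 counts allows up to 24.3 CPM.

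Adra2c, the other alpha2 gene, was low in every class, with 21 UMIs in WT and 128 in CCI. In CCI the mixed Pmch- and Hcrt-led neurons had the highest level of the compared classes (4.73 CPM, 2.75 to 7.57; 17 UMIs). The GABAergic group of no named subtype followed (3.14 CPM, 2.01 to 4.67; 24 UMIs), and the intervals overlapped. Synpo2-type neurons had 0 UMIs in both libraries and astrocytes 1 and 2. After thinning, 0 of 542 CCI nuclei of the mixed class and 4 of 924 of the GABAergic group had an Adra2c UMI, too few to order the classes.

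Adrb1, the beta1 receptor, was highest in microglia among the 13 classes in both libraries. Microglia had 22.8 CPM in WT (7.39 to 53.1; 5 UMIs) and 41.6 CPM in CCI (27.9 to 59.8; 29 UMIs), 3.74 and 3.85 times the level of all other nuclei. In microglia 12.9% of genes were at least 2-fold higher in WT and 16.5% in CCI. Adra2a also passed 2-fold in WT microglia, on 2 UMIs. The WT Adrb1 contrast rested on few UMIs and moved to log2 4.25 under a stricter filter on nuclei and 3.93 under the marker gate. After thinning, 16 of 343 CCI microglia (4.66%) had an Adrb1 UMI and 0 of 49 WT microglia, which allows a share of up to 6.12%. Mature oligodendrocytes had 0.295% in WT and 0.294% in CCI. Astrocytes came next in WT, at 15.7 CPM (16 UMIs) with an interval that overlapped the microglial one, and had 18.5 CPM in CCI. In CCI the Synpo2-type neurons ranked second, at 34.5 CPM (29.5 to 40.1; 171 UMIs), overlapping microglia. Of those UMIs, 150 lay in the subcluster led by Abhd12b, Prkcd and Lef1, which had 53.9 CPM (45.6 to 63.2) against 9.67 CPM (5.99 to 14.8) in the other. The Synpo2-type contrast in CCI was 3.78-fold, and under the marker gate log2 0.71. WT Synpo2-type neurons had 1 Adrb1 UMI in 83 nuclei.

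Few members were at least 2-fold above all other nuclei in the remaining classes. Calb1-type dopaminergic neurons had Adra1b (2.69 times in WT and 2.73 times in CCI), beside 6.6% of genes in WT and 7.6% in CCI. The mixed Pmch- and Hcrt-led neurons had Adra1a in WT (2.66 times on 9 UMIs) and Adra2c in CCI (2.46 times), beside 12.2% and 3.9%. Ebf-type neurons had Adra2c in WT on 3 UMIs (5.16% of genes) and no member in CCI (3.31%). Leaving aside Adra1d, for its few UMIs, no member reached 2-fold in Sox6-type dopaminergic neurons (6.33% and 6.72%), Gata3-type GABAergic neurons (3.7% and 3.32%) or the GABAergic group of no named subtype (3.58% and 2.64%). The same held for Sim1-type neurons (11.2% and 4.05%), the other glutamatergic neurons (4.16% and 3.36%) and mature oligodendrocytes (8.96% and 8.88%).

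**Figure D3:**
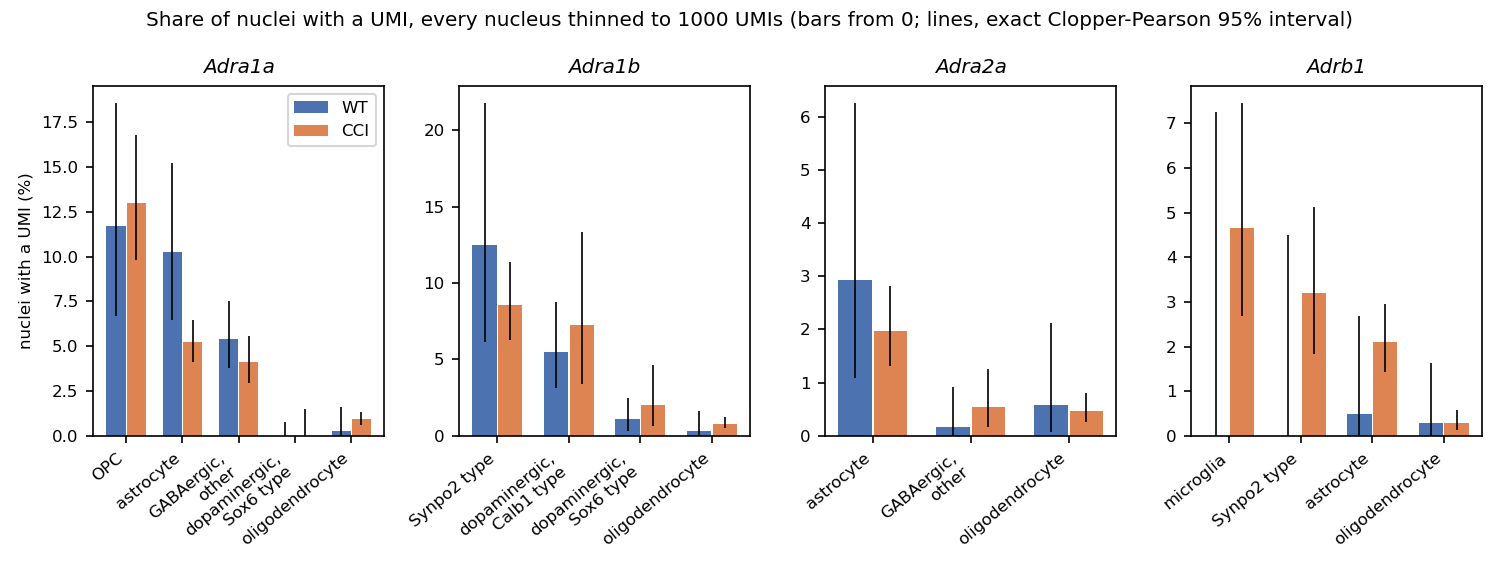
Share of nuclei with at least 1 UMI of Adra1a, Adra1b, Adra2a or Adrb1 after thinning to 1000 UMIs, in percent, with exact Clopper-Pearson 95% intervals. Mature oligodendrocytes, the background, stay below 1% in each panel, and the highest bars are Adra1a in CCI oligodendrocyte precursors (13.0%) and Adra1b in WT Synpo2-type neurons (12.5%).

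The class profile was most alike between libraries for Adra1b. Pearson's r of log2(CPM + 5) over the 13 classes was 0.87 for Adra1b, 0.81 for Adra1a, 0.53 for Adrb1, 0.46 for Adra2a, 0.26 for Adra2c and 0.10 for Adra1d. The 3 lowest values rest on few WT UMIs, at 71 for Adra2a, 21 for Adra2c and 4 for Adra1d. Adra1b and Adra1a had 310 and 558, so a low r need not mean that the profile differed. Among 8100 genes, the profiles most like that of Adra1a, by the lower r of both libraries, were Ptprt (0.88), Cadm1 (0.86) and Pcdh7 (0.85). For Adra1b the nearest were Fam20c (0.85), Unc13b (0.83) and Erc1 (0.79), and for Adra2a Phkg1 (0.81), Atl2 (0.80) and Fam20a (0.79). Adra2c was nearest to Cnr1 (0.70), Txndc15 (0.68) and Arl1 (0.66), of which Cnr1 is the cannabinoid receptor gene, and Adrb1 to Extl3 (0.78), Rreb1 (0.77) and Camta2 (0.70). Adra1d had no close profile, the nearest being Spp1 (0.52), Nefl (0.49) and Slit3 (0.49). These correlations describe 13 points that share a library and its depth. Few WT UMIs limit the nearest genes too, above all for Adra2c and Adra1d. The levels of both in the 13 classes all lay under the 5 CPM added before the log.

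Between the libraries, most class levels of the 6 genes lay within counting error of each other. Over all nuclei Adra1a was level, at 34.9 CPM for WT against 35.7 CPM for CCI (log2 ratio 0.03, -0.10 to 0.17). Adrb1 had 6.32 and 11.2 CPM (0.82, 0.52 to 1.14), a 1.77-fold difference, and Adra1b 19.4 and 27.0 CPM (0.48, 0.30 to 0.66). Adra2a had 4.44 and 5.63 CPM (0.34, -0.03 to 0.73) and Adra2c 1.31 and 2.08 CPM (0.67, -0.01 to 1.41). So 2 of 6 members, Adra2c and Adrb1, were over 1.5-fold higher in CCI, where 12.5% of all genes were, and none was over 1.5-fold lower, where 7.09% were. Without the Synpo2-type neurons, an alternative chosen after seeing the data, the ratio was 0.53 (0.22 to 0.85) for Adrb1 and 0.28 (0.09 to 0.47) for Adra1b. With every nucleus thinned to 1000 UMIs, which leaves out more WT than CCI nuclei, it was 0.42 (-0.09 to 0.96) and -0.19 (-0.49 to 0.12), and that of Adra2a 1.04 (0.31 to 1.84). Thinning is a random draw; nuclei of 1000 UMIs or more weighted equally, an alternative added after seeing the data, give what thinning gives on average. By that measure Adrb1 stood at 0.72, Adra1b at -0.0055 and Adra2a at 0.97.

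**Figure D4:**
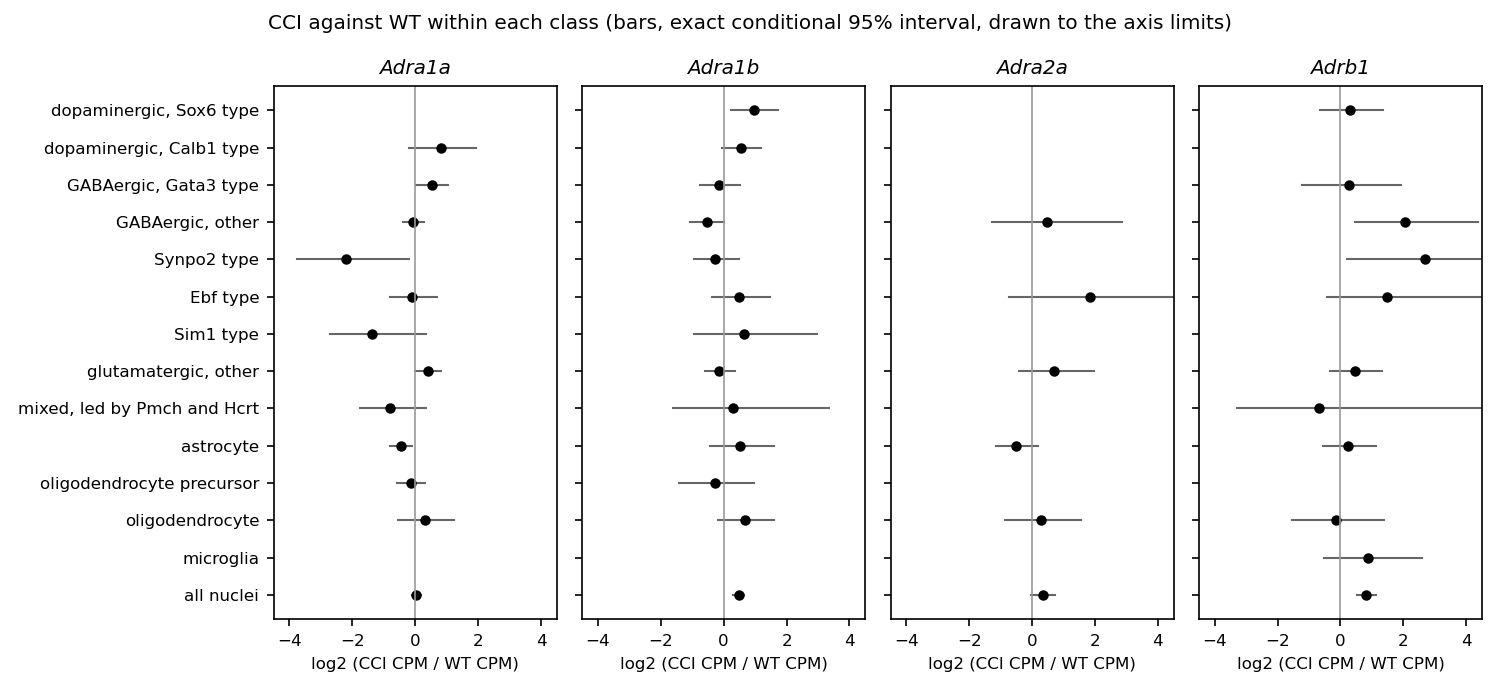
Log2 ratio of the CCI to the WT level of 4 genes within each class and over all nuclei, for genes with at least 20 UMIs in both libraries together, with exact 95% intervals drawn to the axis limits. Adra1a lies below 0 in astrocytes (-0.46) and Synpo2-type neurons (-2.20) and above 0 in Gata3-type GABAergic neurons (0.52).

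In astrocytes Adra1a was lower in CCI, at 65.5 against 90.1 CPM (log2 ratio -0.46, -0.81 to -0.10), and with thinning the interval held 0, at -0.70 (-1.36 to 0.02). The unthinned difference is 1.38-fold, under the 1.5-fold used to call one. With nuclei of 1000 UMIs or more weighted equally it was past that fold, at -0.84. Of all genes, 15.5% were over 1.5-fold higher and 8.55% over 1.5-fold lower in CCI astrocytes, and none of the 4 receptor genes with at least 20 UMIs there was called. The astrocytes fell into a cluster led by Agt and Itih3 (84 WT and 1380 CCI nuclei) and one led by Aldh1a1 and Slc7a10 (1188 and 110). Within the first, Adra1a stood at 104 CPM in WT (10 UMIs) and 66.6 CPM in CCI, and within the second at 88.7 and 46.0 CPM (9 UMIs). Adra2a in astrocytes had a ratio of -0.50 (-1.15 to 0.20) and Adrb1 one of 0.24 (-0.56 to 1.12). Other settings put Adrb1 past 1.5-fold: 1.54 (-1.09 to 6.91) with thinning, 1.32 (0.12 to 2.81) under the stricter filter and 2.38 with nuclei of 1000 UMIs or more weighted equally. Markers of dopaminergic neurons also differed between the libraries' astrocytes: Slc18a2, the vesicular monoamine transporter, had 90.1 CPM in WT and 29.6 CPM in CCI, Ddc 43.1 and 24.0, and Th 11.8 and 5.81. The part of neuronal RNA in the Adra1a value was not tested. In WT the dopaminergic classes, Sox6 and Calb1 types, held 0 and 12 Adra1a UMIs. Larger WT counts lay in other neurons, among them those left unnamed (115) and the GABAergic group of no named subtype (85). The other glutamatergic neurons held 62 and the Gata3 type 48.

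In oligodendrocyte precursors the Adra1a ratio was -0.14 (-0.57 to 0.31), and 13.8% of genes were over 1.5-fold higher and 9.19% lower in CCI. Gata3-type GABAergic neurons had 48 and 134 Adra1a UMIs, a ratio of 0.52 (0.03 to 1.03), with none of 3 members measured past 1.5-fold where 12% of genes were higher and 6.88% lower. With thinning it was 0.49 (-0.59 to 1.55). The Gata3 subcluster with Sox2ot and Sema3e among its leading genes had 11.1 CPM in WT (3.61 to 25.9, 5 UMIs). In CCI it had 51.0 CPM (37.2 to 68.2, 45 UMIs). The one led by Ttn and Myo5b had 11.4 CPM in WT and 24.4 CPM in CCI, with overlapping intervals. Intervals of the Pax5- and Hydin-led subcluster also overlapped between the libraries. In Sox6-type dopaminergic neurons Adra1b had 16.1 and 31.1 CPM (0.95, 0.23 to 1.73), and Adra1a had 0 and 19 UMIs, under the 20 UMIs needed for a call. There 11.4% of genes were over 1.5-fold higher and 8.53% lower. All 509 WT nuclei of this type lay in 1 subcluster and 233 of 247 CCI nuclei in another, so the values come from different clusters. In 1 random draw of thinning the sign of the Adra1b ratio turned, to -0.22 (-2.10 to 1.42), while equal weight for nuclei of 1000 UMIs or more gave 1.10. Calb1-type neurons shared 1 subcluster and had ratios of 0.82 (-0.20 to 1.92) for Adra1a and 0.57 (-0.04 to 1.19) for Adra1b, beside 15.5% of genes higher and 8.47% lower. The same draw turned this Adra1b ratio to -0.18 (-1.82 to 1.25), and equal weight gave 0.75.

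In Synpo2-type neurons Adra1b had a ratio of -0.28 (-0.96 to 0.49). Adra1a had 4 WT and 23 CCI UMIs, or 21.3 and 4.64 CPM (-2.20, -3.75 to -0.21), and Adrb1 had 1 and 171 UMIs (2.70, 0.20 to 8.01). In this class 16% of genes were over 1.5-fold higher and 24.3% lower in CCI, and the 83 WT nuclei limit every value. The 24.3% counts as lower genes with 0 WT UMIs whose CCI level lay over 1.5-fold under 3 WT counts. No member ratio in this class rests on such a count. With thinning the Adra1a interval held 0, at -2.65 (-8.94 to 3.65), and no WT Adrb1 UMI was left. In microglia Adrb1 had a ratio of 0.87 (-0.51 to 2.60), beside 25.9% of genes higher and 18% lower. Its sign turned under the stricter filter (-1.12) and the marker gate (-0.96).

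The GABAergic neurons of no named subtype had 5 members measured, and 2 of them were over 1.5-fold higher in CCI and 0 lower, where 14.3% of genes were higher and 7.23% lower. These were Adrb1 (3 and 63 UMIs; 2.07, 0.45 to 4.38) and Adra2c (3 and 24 UMIs; 0.67, -1.04 to 3.05). Adra1b there had 26.9 and 18.4 CPM (-0.54, -1.05 to -0.0046). Ebf-type neurons had Adra2a (1.85, from 1 WT UMI) and Adrb1 (1.49, from 2 WT UMIs) higher, with intervals that held 0, where 16.3% of genes were higher and 8.69% lower. The other glutamatergic neurons had Adra2a higher (0.68, -0.41 to 1.98) and Adra1a at 0.40 (0.01 to 0.82), with 13.1% of genes higher and 9.01% lower.

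Sim1-type neurons had Adra1b higher (0.65) and Adra1a lower (-1.37) in CCI, both with intervals that held 0, where 19.5% of genes were higher and 21.9% lower. Adra2a and Adrb1 there had 0 UMIs in WT, and their CCI levels of 8.83 and 12.8 CPM lay under what 3 WT counts would give. These 2 members were given no ratio, while genes of that kind count among the 21.9%. The mixed Pmch- and Hcrt-led neurons had Adra1a (-0.81, -1.77 to 0.34) and Adrb1 (-0.68, -3.30 to 4.69) lower, with 16.8% of genes higher and 32.8% lower. Adra2a in that class had 0 UMIs in WT and 25 in CCI. It was given no ratio, while genes of that kind count among the 32.8%. Mature oligodendrocytes had Adra1b higher (0.67, -0.17 to 1.60), with 13% of genes higher and 6.61% lower.

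In astrocytes most signalling partners of the receptors, like most genes of the class, lay within 1.5-fold between the libraries. Of all genes measured there, 15.5% were over 1.5-fold higher and 8.55% lower in CCI. Of 10 Gq-arm genes (G proteins, phospholipases C, IP3 receptors and protein kinases C), 1 (Gna11, 0.69) was over 1.5-fold higher and 0 lower, with a median log2 ratio of 0.08, against 0.04 over the 12222 genes measured. Prkce, a protein kinase C, had a ratio of 0.37 (0.13 to 0.61) and Plcb1, a phospholipase C, one of -0.37 (-0.41 to -0.32). Of 8 Gi/o-arm genes 1 was higher and 1 lower, the extremes being Gnai2 (0.71) and the potassium channel gene Kcnj6 (-0.73). Of 15 Gs and cAMP genes 1 was higher and 1 lower, the first being Adcy8, an adenylyl cyclase, at 0.71 (0.51 to 0.91), and the second Adcy5, another cyclase, at -0.64. Pde4b, which breaks down cAMP, stood at -0.34. Of 11 measured desensitization genes 3 were higher and 0 lower (median 0.35): Rgs9 (1.03) and Rgs4 (0.69), which shorten G protein signals, and Grk3, a receptor kinase, at 0.61 (0.44 to 0.79). Rgs7 stood at -0.44. Of 6 measured supply genes 0 were higher and 3 lower, and those 3 were Slc18a2, Ddc and Th, which are also the dopaminergic markers named above. With thinning the counts were 1 higher and 1 lower for the supply list and 4 higher and 1 lower for the cAMP list. Maob (0.37) and Maoa (-0.01), which encode monoamine oxidases, were within 1.5-fold.

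In oligodendrocyte precursors 1 of 9 measured Gq-arm genes, Gna11 (1.39), was higher in CCI and 0 lower, with Prkce at 0.50 (0.18 to 0.83) and Plcb1 at -0.18. The median was 0.22, against 0.03 over all genes of the class, of which 13.8% were over 1.5-fold higher and 9.19% lower. In Sox6-type dopaminergic neurons 0 of 9 were past 1.5-fold in either direction (median 0.05, against 0.02), with the phospholipase C genes Plcb4 at 0.15 and Plcb1 at -0.25. Among all genes of that class 11.4% were over 1.5-fold higher and 8.53% lower. In Synpo2-type neurons 1 of 9 Gq-arm genes was higher, the IP3 receptor gene Itpr2 (0.74), and 1 lower, the protein kinase C gene Prkca (-0.89). Itpr1, another IP3 receptor gene, stood at 0.56 (0.11 to 1.04). Their 15 Gs and cAMP genes had 1 higher, Prkaca (1.65), the catalytic subunit of protein kinase A, and 3 lower: Adcy5 (-0.69), Adcy9 (-0.67) and Prkar1a (-0.72), and the phosphodiesterase gene Pde10a stood at 0.44 (0.23 to 0.65). The balance of that list turned with TMM scaling, to 3 higher and 0 lower, and was 3 and 3 with thinning. Among all genes of the Synpo2-type class 16% were over 1.5-fold higher and 24.3% lower. The list medians in Synpo2-type neurons were 0.09 and 0.13, against -0.10 over all genes of the class. For that last median a WT count of 0 was taken as 3 counts, which in this class can place a gene seen only in CCI among the lower ones.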

How the data were processed

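UMI counts per gene and barcode were deposited for each library, made with Cell Ranger 7.1.0 per the file headers. The submitters' processing notes name build mm10 and Seurat, and annotation and intron settings are not given in the sources used here. From these counts, barcodes below 200 genes or 500 UMIs, or above 20% mitochondrial UMIs, were dropped, and Scrublet in scanpy 1.11.5 (10% expected) removed 1235 WT and 911 CCI predicted doublets. Counts were log-normalized and scaled within each library, and 2000 variable genes, 30 components and 20 neighbours gave Leiden clusters (leidenalg 0.10.2, resolution 1.0), with neurons clustered again. The clustering was computed in double precision after single precision was found to give processor-dependent neuron borders. Classes came from marker lists; the cut-offs for naming were set after seeing the clusters, and clusters led by another class's markers stayed unnamed.

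UMIs were summed per class and library. Levels carry exact Poisson, ratios exact conditional and shares exact Clopper-Pearson 95% intervals, where a count of 0 was taken as 3 counts. Ratios needed 20 UMIs or more in the 2 libraries together. The calculations were tested on simulated data: in astrocytes, of 100 genes raised 4-fold all 100 were measured and called, and of 100 lowered 4-fold 84 were measured and called. The other genes fell under the 20-UMI minimum. It leaves out low genes that fell in the deeper CCI library, which understates the percentages of genes lower in CCI. The 3 counts work the other way in Synpo2-type, Sim1-type and mixed Pmch- and Hcrt-led neurons, whose CCI UMIs far outnumber those of WT. There a gene with 0 WT UMIs and 20 or more in CCI could be counted as lower. In these classes the direction of the error is not known. Named genes were the 6 receptors, the 3 genes most like each in profile, and from each signalling list the genes with the most extreme interval bounds in a described class. The members and lists were chosen with earlier results of these data known.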

Additional observations from a re-analysis of the deposited data

Results flagged for a closer look

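The Adra1a ratio of CCI to WT had opposite signs in different classes, with intervals that left out 0. It lay above 0 in Gata3-type GABAergic neurons (log2 0.52) and the other glutamatergic neurons (0.40, lower limit 0.0051), and below 0 in Synpo2-type neurons (-2.20, from 4 WT UMIs) and astrocytes (-0.46). With thinning the intervals of the Gata3 type, the Synpo2 type and astrocytes held 0. The intervals were not adjusted for the number of genes and classes looked at. The Adra1b ratio lay above 0 in Sox6-type dopaminergic neurons (0.95) and below 0 in the GABAergic neurons of no named subtype (-0.54). The Sox6-type nuclei of WT and CCI lay in different subclusters, and their ratio was -0.22 (-2.10 to 1.42) in 1 draw of thinning and 1.10 with nuclei of 1000 UMIs or more weighted equally. The difference between classes was not tested for either gene, since each group is 1 library.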

How the results depend on the processing

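No paired analysis was possible because each group is 1 library. Of 161 recomputed CCI to WT ratios 145 stayed inside the interval of the reported value, and 3 turned the sign of a reported value past 1.5-fold. Turns of smaller reported values were not counted in those 3, such as Adra1b in the Calb1 type and over all nuclei with thinning. Inside it stayed 101 of 110 class contrasts, 26 of 27 contrasts of the dopaminergic types, 88 of 102 levels and 87 of 103 shares, and 40 of 54 list counts stayed within 1.5 times. A second random draw kept all 12 thinned shares inside their intervals. Values here are log2 unless they are counts. With nuclei thinned to 1000 UMIs, Adra1b in Sox6-type dopaminergic neurons turned to -0.22 and in the Calb1 type to -0.18, and the lower bound for Adra1a in the Sox6 type moved to 0.33 and that of its Calb1 to Sox6 contrast in WT to 0.67. Over all nuclei thinning gave -0.19 for Adra1b, 1.04 for Adra2a and 0.42 for Adrb1. With nuclei of 1000 UMIs or more weighted equally in place of a random draw, the Sox6 and Calb1 types gave 1.10 and 0.75 for Adra1b, with no turn of sign. All nuclei gave -0.12 for Adra1a, -0.0055 for Adra1b and 0.97 for Adra2a, astrocytes -0.84 for Adra1a and 2.38 for Adrb1, and the Calb1-type contrast of Adra1b in CCI was 1.96. Thinned astrocytes gave 1.54 for Adrb1, and 1.18 for the Adra1a contrast of CCI. With a marker gate on each nucleus, Adra1a in WT oligodendrocyte precursors moved to 1.66, Adra1b in Synpo2-type neurons to 0.55 (WT) and 0.64 (CCI), Adrb1 there to 0.71 (CCI) and Adrb1 in WT microglia to 3.93. The microglial Adrb1 ratio of CCI to WT turned to -0.96 with the gate and -1.12 under the stricter filter, where the WT contrast was 4.25. Adra1a in CCI precursors moved to 1.57 with doublets kept, Adrb1 in astrocytes to 1.32 under the stricter filter, and Adra1b over all nuclei to 0.28 without Synpo2-type neurons. The causes were not tested.

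List counts in astrocytes moved with thinning to 1 supply gene higher and 1 lower, 2 Gi/o genes lower and 4 cAMP genes higher, and with a minimum of 100 UMIs to 0 cAMP genes lower and 1 desensitization gene higher. Gq genes higher moved to 0 in precursors under both settings, to 1 in Sox6-type neurons with thinning, and to 2 in Synpo2-type neurons with TMM scaling and with thinning. Synpo2-type cAMP genes moved to 3 higher under both and to 0 lower with TMM scaling, which shifted that class by -0.15.

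The borders of several neuron groups were less fixed than those of astrocytes and precursors. A second random seed, chosen after seeing the data, kept all 2762 astrocytes and 931 precursors and 583 of 584 Synpo2-type nuclei, but 340 of 596 of the mixed Pmch- and Hcrt-led neurons and 1682 of 2212 other glutamatergic neurons. The GABAergic group of no named subtype kept 1403 of 1533 and grew to 2216. Mature oligodendrocytes kept 5690 of 5943, Sox6-type dopaminergic neurons 749 of 756 and the Calb1 type 441 of 455. In lower numerical precision the borders of the GABAergic, Sim1-type and mixed neurons also moved. At resolution 0.5 the dopaminergic types were not separated, at 2.0 WT microglia were too few, thinning left no WT Adrb1 UMI in microglia or Synpo2-type neurons, equal weight for nuclei gave no value there or where WT Sox6-type neurons had no Adra1a UMI, and the equal weighting of clusters had none shared for Sox6-type neurons, so these gave no value. Adra2c in the GABAergic group of no named subtype gave none in WT with doublets kept, the gate or thinning, or in either library at 0.5. Shallow WT nuclei limit Adra1d, Adra2c and every WT class under 100 nuclei.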
